A study of Homo sapiens with 16 samples.

Results

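The nuclear genes for the subunits of oxidative phosphorylation were examined in 4 cell lines of clear cell renal cell carcinoma (ccRCC), and in their KDM5C and KDM5D mutant derivatives. Members were the protein-coding genes with symbols NDUFA, NDUFB, NDUFC, NDUFS or NDUFV followed by a number, SDHA to SDHD, UQCR, COX4I, COX5A, COX5B, COX6, COX7, COX8, ATP5F1, ATP5M or ATP5P. This rule used gene names and no measured value. It found 86 genes among 57773 Ensembl identifiers, with 37 for complex I, 4 for complex II, 9 for complex III, 17 for complex IV and 19 for complex V. It left out 106 pseudogenes and 2 other non-coding genes that matched by symbol, and it did not reach NDUFAB1, NDUFA4L2 or CYC1.

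RNA-seq of total RNA was performed on 16 libraries to ask how mutation of KDM5C, a histone H3 lysine-4 demethylase on the X chromosome, or of its Y-linked paralogue KDM5D affects ccRCC cells. The lines 769-P, A498, CAKI-2 and 786-O are established human kidney cancer lines, here grown in DMEM with foetal calf serum and infected with lentiviruses that carried Cas9, a drug resistance gene and 1 guide RNA. Each line had 1 sgCtrl library and 2 sgKDM5C libraries, guides 4 and 5, which cut in the same exon. The lines 786-O and CAKI-2 also had 2 sgKDM5D libraries each, guides 2 and 4. The cells were infected populations and not clones, every group including sgCtrl carried Cas9, and the replicates of a mutant group were different guides compared with a single control library. P-values therefore measure the spread between infected populations of a line. They do not measure spread between independently derived lines.

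Oxidative phosphorylation couples the oxidation of NADH and succinate to ATP synthesis. Complexes I and II pass electrons to ubiquinone, complex III passes them to cytochrome c and complex IV to oxygen, while complexes I, III and IV pump the protons that drive complex V, the ATP synthase. Complex II is built from nuclear gene products alone, whereas the others combine nuclear subunits with subunits made inside the mitochondrion, and ccRCC is known for a low oxidative and high glycolytic metabolism.

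Promoters of members named in the results are shown first. The RefSeq promoter window, from 250 bases before to 50 bases after the gene start in GRCh38.p14, was found for 68 of the 86 members. The windows below belong to NDUFS7 and UQCR11, which are neighbours on chromosome 19, to SDHA and ATP5F1A, the members of complexes II and V with the widest range between lines, and to ATP5PF, whose window held all 4 motifs searched. Capitals mark matches on either strand to CGCATGCG (the core of the NRF1 site), CCGGAAG (the core bound by ETS factors such as GABPA), AAGATGGC (the core bound by YY1) or TATAAA (the TATA box). Where capitals spell CTTCCGG or TTTATA, the match is on the other strand.
NDUFS7, chr19:1383657-1383956, plus strand: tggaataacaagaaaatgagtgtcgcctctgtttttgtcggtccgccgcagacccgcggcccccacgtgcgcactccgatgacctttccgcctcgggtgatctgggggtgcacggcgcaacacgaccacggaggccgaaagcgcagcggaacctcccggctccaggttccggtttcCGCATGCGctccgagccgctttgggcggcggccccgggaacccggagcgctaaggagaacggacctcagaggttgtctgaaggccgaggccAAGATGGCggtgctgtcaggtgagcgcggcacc
UQCR11, chr19:1605413-1605712, minus strand: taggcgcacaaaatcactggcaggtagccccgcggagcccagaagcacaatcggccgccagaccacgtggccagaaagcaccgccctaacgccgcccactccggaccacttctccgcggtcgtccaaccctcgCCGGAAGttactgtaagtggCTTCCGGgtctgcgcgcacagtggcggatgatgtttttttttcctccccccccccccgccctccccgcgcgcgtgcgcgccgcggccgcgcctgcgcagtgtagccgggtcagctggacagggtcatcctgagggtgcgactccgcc
SDHA, chr5:218070-218369, plus strand: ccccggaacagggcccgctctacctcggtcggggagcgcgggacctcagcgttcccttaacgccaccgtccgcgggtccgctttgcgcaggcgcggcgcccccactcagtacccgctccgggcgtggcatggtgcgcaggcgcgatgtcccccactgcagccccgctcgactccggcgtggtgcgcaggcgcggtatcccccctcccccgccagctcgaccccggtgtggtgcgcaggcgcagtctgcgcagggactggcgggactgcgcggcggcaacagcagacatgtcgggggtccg
ATP5F1A, chr18:46104178-46104477, minus strand: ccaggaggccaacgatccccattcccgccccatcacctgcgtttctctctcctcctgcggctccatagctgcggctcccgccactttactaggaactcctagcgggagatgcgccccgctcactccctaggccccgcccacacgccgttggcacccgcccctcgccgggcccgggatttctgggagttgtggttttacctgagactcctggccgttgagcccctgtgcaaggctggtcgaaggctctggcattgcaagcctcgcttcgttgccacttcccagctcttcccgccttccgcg
ATP5PF, chr21:25735005-25735304, minus strand: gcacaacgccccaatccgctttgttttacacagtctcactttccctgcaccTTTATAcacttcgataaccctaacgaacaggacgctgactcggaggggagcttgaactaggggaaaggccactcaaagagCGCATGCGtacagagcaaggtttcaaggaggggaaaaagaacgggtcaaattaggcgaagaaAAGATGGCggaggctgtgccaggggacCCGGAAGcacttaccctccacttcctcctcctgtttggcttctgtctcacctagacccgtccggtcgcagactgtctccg

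The NRF1 core stood in 10 of the 68 member promoters (14.7%), compared with 2.02% of all 35116 promoters and 2.49% of the 22199 promoters of protein-coding genes. The YY1 core stood in 11 (16.2%, compared with 2.89% of all promoters) and the ETS core in 20 (29.4%, compared with 10.3%). The TATA box stood in 7 (10.3%), close to the 11.5% of all promoters. By complex, 4 of 13 complex V promoters and 0 of 7 complex III promoters held the NRF1 core. The windows of SDHA and ATP5F1A held none of the 4. A match is a description of letters, and no binding was measured here.

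Depth ranged from 23398449 to 41617439 counts per library. Levels are given as CPM, the count scaled to a library total of 1000000 after TMM adjustment, which compares a gene between libraries and not 1 gene with another. All 16 libraries differed from each other by more than counting noise, and the 786-O sgKDM5C guide 4 library stood apart from guide 5 of the same line by the widest margin of any pair within a line (chi-square of 69.1 per gene). The epithelial markers PAX8, KRT8 and KRT18 were at 84.6 CPM or above in every library. EPCAM, another epithelial marker, was at 9.10 to 22.9 CPM in CAKI-2 and 769-P but at 0.30 to 2.22 CPM in 786-O and A498. CA9, a hypoxia-induced marker of ccRCC, had 0 counts in the sgCtrl and sgKDM5C libraries of 786-O and 769-P and averaged 7.02 CPM in A498. The 4 leukocyte markers and the fibroblast markers COL3A1 and DCN did not reach 60 counts in sum. The third fibroblast marker, COL1A1, was at 23.6, 41.8 and 33.8 CPM in A498 and at 1.07 to 10.6 CPM in the other lines, and its part in the line differences was not tested. The endothelial markers VWF and CDH5 did not exceed 1.18 CPM in any sgCtrl or sgKDM5C library. KDM5C itself was at 166 to 239 CPM in the sgCtrl libraries and 43.6 to 118 CPM in the sgKDM5C libraries, a mean log2 fold change of -1.12 (SE 0.133, edgeR adjusted p = 0.0154).

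Of the 86 members, 81 reached 60 counts over the 16 libraries and were tested, with 37, 4, 9, 14 and 17 in complexes I to V. The 5 others were COX4I2, COX7B2, COX8C, ATP5MF-PTCD1 and ATP5MGL, with 1 to 17 counts each in all libraries together. Tissue-restricted isoforms were also scarce, with 62 counts for COX6A2, 71 for COX7A1 and 233 for COX6B2. Several members share exon sequence with another gene on the same strand, so that their counts are uncertain. This held for 90.0% of the exon bases of NDUFV2 (369 counts in all), 83.9% of NDUFA13 (609 counts), 77.9% of NDUFA7 (122 counts), 72.0% of NDUFB8 and 68.2% of NDUFA11. UQCRHL is a near copy of UQCRH, and their counts cannot be separated with certainty. NDUFA4 is counted with complex I by its symbol, although its product is now assigned to complex IV.

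The first comparison was between the lines. Of the 81 members, 73 differed between the 4 lines (edgeR quasi-likelihood test, adjusted p under 0.05), against 90.5% of all 20175 genes tested, and DESeq2 called 71. Those not called were NDUFA1, NDUFA4, NDUFA5, NDUFA6, NDUFA7, NDUFA8, SDHD and ATP5ME. The median range between the highest and the lowest line mean was 1.002 on the log2 scale for members and 1.77 for all genes tested, or 0.93 against 1.46 where the mean was 100 counts or more. By complex, the median range was 1.03, 1.36, 1.05, 0.88 and 0.67 for complexes I to V, while the 13 mitochondrially encoded subunits had a median range of 1.76.

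Each line was then compared with the mean of the 3 other lines, using the sgCtrl and sgKDM5C libraries. These 4 contrasts share libraries and are not independent. The line 769-P had the highest nuclear oxidative phosphorylation transcripts. In 769-P, 50 of 81 members were higher and 4 were lower, where 30.9% of all genes were higher and 27.3% lower, and the median log2 difference was 0.50 for members and -0.06 for all genes. In CAKI-2, 40 members were lower and 10 higher, where 25% of all genes were lower and 36.6% higher, with a median of -0.31 for members and 0.11 for all genes. The line 786-O was divided, with 20 members higher and 19 lower (29.3% and 27.2% of all genes) and a median of -0.01. In A498, 17 were higher and 30 lower (39.7% and 29.4% of all genes) and the median was -0.08. The A498 balance depended on scaling, since 27 were higher and 25 lower, with a median of 0.11, when upper-quartile scaling moved the median of all genes by 0.19. It was 33 higher and 27 lower (median 0.10) with the GC trend removed, and 11 higher and 38 lower (median -0.21) with the transcript length trend removed.

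**Figure D1:**
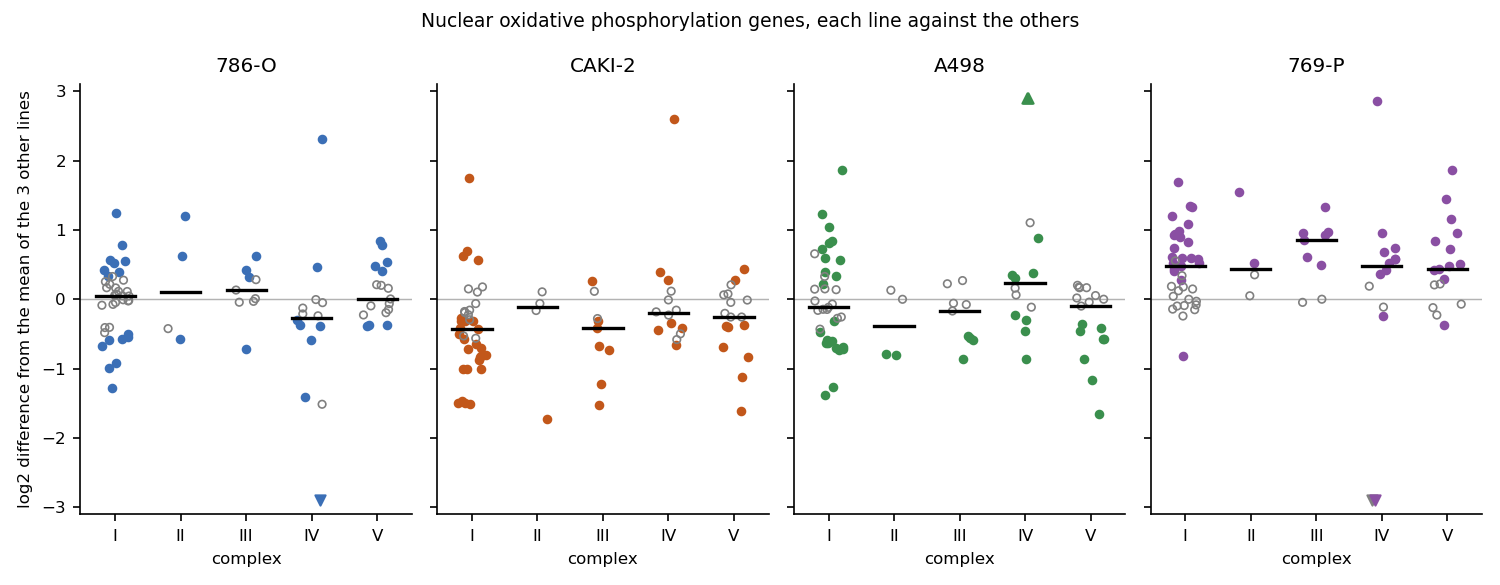
Log2 difference of each of the 81 members from the mean of the 3 other lines (vertical axis), in 1 panel per line and by complex (horizontal axis). Filled points had an adjusted p under 0.05, black bars are medians per complex, and triangles mark 5 values of the scarce isoforms COX6A2, COX6B2 and COX7A1 beyond the axis. In 769-P the bars of all 5 complexes lie above 0, from 0.43 to 0.86, and in CAKI-2 they lie below 0, from -0.42 to -0.11.

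The summed level of all members was also highest in 769-P. The sum was 11338, 10401 and 10532 CPM in the 769-P libraries sgCtrl, sgKDM5C guide 4 and sgKDM5C guide 5. It was 7382 to 7995 CPM in the 5 libraries of 786-O, 5872 to 6584 CPM in the 3 of A498 and 5809 to 6604 CPM in the 5 of CAKI-2. Every 769-P library was above every library of the other lines, the 786-O libraries came next, and those of CAKI-2 and A498 overlapped. By gene, 769-P had the highest mean for 45 members, and for 34 of these its 3 libraries lay above the 9 sgCtrl and sgKDM5C libraries of the other lines (12.2% of all genes). CAKI-2 had the lowest mean for 35 members, and for 22 its 3 libraries lay below the other 9 (9.8% of all genes). The 80 cytosolic ribosomal protein genes moved in the same directions in 769-P and CAKI-2. Their median log2 differences from the mean of the lines were 0.28, 0.14 and 0.26 in 769-P (sgCtrl, guide 4, guide 5). In CAKI-2 they were -0.21, -0.37 and -0.25, where the members had -0.18, -0.31 and -0.15. A common cause was not tested.

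Complex I oxidises NADH. Its members were lower in CAKI-2 (22 of 37 called lower, 4 higher, median -0.42) and higher in 769-P (21 of 37 called higher, 1 lower, median 0.49), and were mixed in 786-O (8 higher, 8 lower) and A498 (11 higher, 12 lower). The 7 nuclear core subunits of the hydrophilic arm, which carry the flavin and iron-sulphur clusters, were all on the higher side in 769-P (5 called, median 0.93). In CAKI-2, 6 of these 7 were called lower (median -0.82). Among the 30 other members of complex I the medians were 0.34 in 769-P and -0.31 in CAKI-2.

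NDUFS6, an accessory subunit close to the NADH-oxidising module, was at 119, 101 and 129 CPM in the 786-O libraries (sgCtrl, guide 4, guide 5 here and below), 78.96, 73.2 and 83.4 CPM in 769-P, 45.2, 42.2 and 34.8 CPM in A498, and 34.5, 35.9 and 40.4 CPM in CAKI-2. The 786-O values were above all others (1.24, SE 0.111, adjusted p = 2.95e-07 by edgeR), and CAKI-2 and A498 overlapped. NDUFA3, an accessory membrane subunit, ran the other way, with 23.4, 20.2 and 20.3 CPM in 786-O and 92.1, 78.97 and 61.4 CPM in A498. These were the lowest and highest lines for NDUFA3, with differences of -1.29 (SE 0.128) and 1.23 (SE 0.109).

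NDUFS7, a core subunit next to the ubiquinone site, was at 11.3, 9.94 and 12.9 CPM in CAKI-2 and at 23.7 CPM or above in every library of the other lines, a difference of -1.50 (SE 0.167) in CAKI-2. NDUFB10 and NDUFB5, accessory subunits of the membrane arm, were higher in CAKI-2 (0.63, SE 0.121, and 0.69, SE 0.0926), against the direction of most members there. NDUFB10 was lower in A498, at 45.9, 47.8 and 32.8 CPM (-1.27, SE 0.139), and its A498 values did not reach those of any other line. NDUFS4 was lower in 786-O, at 17.2, 17.5 and 15.7 CPM (-0.99, SE 0.138). CAKI-2 overlapped with it, at 19.0, 17.4 and 18.6 CPM, and A498 and 769-P were at 42.3 to 50.3 CPM. The narrowest range of complex I was that of NDUFA6, with a span of 0.19 on the log2 scale between lines.

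The widest range of complex I, 2.18 on the log2 scale, belonged to NDUFV2 and rested on few reads. NDUFV2 was at 1.45, 1.78 and 1.11 CPM in CAKI-2 (1.75, SE 0.251) and at 0.34, 0.19 and 0.27 CPM in A498 (-1.39, SE 0.343). NDUFA13 was likewise at 3.75, 2.85 and 2.97 CPM in A498 (1.87, SE 0.248) and at 0.91, 0.57 and 0.90 CPM in 769-P (-0.82, SE 0.304, edgeR adjusted p = 0.0314, DESeq2 adjusted p = 0.0781, and edgeR adjusted p = 0.106 without the 769-P guide 4 library). NDUFA11 was higher in A498 (1.04, SE 0.164). All 3 share most of their exon bases with another annotated gene. How reads in shared exons were counted is not known, so these counts may not give the full output of the locus.

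Complex II, succinate dehydrogenase, showed a separate pattern for each subunit. SDHA, the catalytic flavoprotein, was at 415, 480 and 359 CPM in 786-O, 323, 243 and 291 CPM in 769-P, 211, 234 and 239 CPM in A498, and 92.8, 88.3 and 88.5 CPM in CAKI-2. CAKI-2 was lowest without overlap (-1.73, SE 0.126, edgeR adjusted p = 2.66e-08) and 786-O highest without overlap (1.20, SE 0.104, adjusted p = 2.11e-07 by edgeR). SDHB, the iron-sulphur subunit, was higher in 786-O (0.62, SE 0.0915) and lower in A498 (-0.78, SE 0.101). SDHC, a membrane anchor, was at 182, 196 and 176 CPM in 769-P and at no more than 81.3 CPM in any library of the other lines (1.55, SE 0.104). SDHD, the other anchor, did not differ beyond the test's threshold, and its line means spanned 0.61 on the log2 scale.

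Complex III members were higher in 769-P (7 of 9 called, median 0.86) and lower in CAKI-2 (6 of 9 called, 1 higher, median -0.41). The core proteins UQCRC1 and UQCRC2 and the Rieske iron-sulphur protein UQCRFS1 were all 3 called higher in 769-P, by 0.61 (SE 0.0838), 1.33 (SE 0.0870) and 0.50 (SE 0.0925). UQCRC2 was at 270, 248 and 214 CPM in 769-P and 72.5, 59.6 and 62.0 CPM in CAKI-2, with 786-O and A498 between them at 108 to 137 CPM. UQCRFS1 did not follow the others in CAKI-2, where it was higher (0.27, SE 0.0936). UQCR11, a small subunit, was at 8.71, 7.05 and 8.71 CPM in CAKI-2 and at 16.9 to 31.9 CPM elsewhere, a difference of -1.52 (SE 0.157, edgeR adjusted p = 1.11e-06). UQCRQ had the narrowest range, 0.40 on the log2 scale.

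Complex IV, cytochrome c oxidase, had 9 of 14 members called higher and 2 lower in 769-P (median 0.48). In 786-O 6 were lower and 2 higher (median -0.27), in CAKI-2 4 lower and 3 higher, and in A498 6 higher and 4 lower. COX7C, a small structural subunit, was at 62.7, 59.9 and 57.9 CPM in 786-O, compared with 135, 145 and 135 CPM in A498, 155, 129 and 148 CPM in CAKI-2 and 213, 210.2 and 198 CPM in 769-P. The 786-O values were below all others (-1.41, SE 0.0981, edgeR adjusted p = 2.33e-08). COX5B was higher in A498 (0.89, SE 0.111) and COX4I1, the common isoform of subunit IV, was lower in CAKI-2 (-0.66, SE 0.118). COX7A2L, which joins complexes III and IV in supercomplexes, had the narrowest range of the complex, 0.36 on the log2 scale, and a difference of -0.24 in 769-P (SE 0.0935, edgeR adjusted p = 0.0376). This call was lost in 7 of the alternatives, with adjusted p from 0.0569 to 0.214 by edgeR, among them the fits without 769-P sgKDM5C guide 5, CAKI-2 sgKDM5C guide 5 or either CAKI-2 sgKDM5D library.

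The isoforms of complex IV that are restricted to certain tissues differed between lines at low counts. COX6B2, known from testis, was at 2.04, 1.95 and 1.79 CPM in A498 and had 0 counts in the 3 libraries of 769-P. Against the 3 counts over 3 libraries that a count of 0 allows, A498 was at least 49.2-fold higher than 769-P. COX6A2, known from heart and skeletal muscle, had 0 counts in all 5 libraries of 786-O and was at 0.30, 0.23 and 0.61 CPM in A498, at least 10.6-fold higher by the same bound. COX7A1, also a heart and muscle isoform, was at 0.26, 0.21 and 0.40 CPM in 786-O and at 0, 0.14 and 0 CPM in 769-P. Their widely expressed counterparts COX6B1, COX6A1 and COX7A2 had log2 differences between -0.46 (COX7A2 in A498) and 0.42 (COX6A1 in 769-P) in the 4 lines. Without these 3 scarce isoforms, the medians of the other 78 members were 0.51 in 769-P, -0.31 in CAKI-2, -0.01 in 786-O and -0.11 in A498.

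Complex V, the ATP synthase, had 11 of 17 members called higher and 1 lower in 769-P (median 0.43), 7 lower and 2 higher in CAKI-2, and 8 lower and 0 higher in A498. The catalytic F1 head was high in 769-P and low in A498, and CAKI-2 shared the low side. Of its 5 members, 4 were called higher in 769-P (median 0.96) and 4 were called lower in A498 (median -0.57). In CAKI-2 3 were called lower (median -0.41), and in 786-O 3 were called higher (median 0.41). ATP5F1A, the alpha subunit, was at 789, 756 and 673 CPM in 769-P, 368, 370.1 and 353 CPM in 786-O, then 202, 193 and 196 CPM in the line CAKI-2, and 109.5, 131 and 133 CPM in A498. The 4 lines did not overlap at any point, with differences of 1.87 in 769-P (SE 0.0845, edgeR adjusted p = 2.92e-10) and -1.66 in A498 (SE 0.104, edgeR adjusted p = 4.39e-09). ATP5F1B, the catalytic beta subunit, followed it at 1.16 (SE 0.0906) in 769-P and -1.16 (SE 0.105) in A498.

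ATP5F1D, the delta subunit of the head, departed from this order. It was at 25.9, 21.98 and 28.3 CPM in CAKI-2 and at 44.7 CPM or above elsewhere (-1.61, SE 0.206), and its difference in 786-O was 0.84 (SE 0.175). The c-ring genes ATP5MC1, ATP5MC2 and ATP5MC3, which encode the same mature proton-carrying subunit, were all 3 called higher in 769-P and all 3 lower in A498, with medians of 0.48 and -0.41. Of the peripheral stalk, ATP5PB was higher in 769-P (1.45, SE 0.0776) and lower in CAKI-2 (-1.12, SE 0.0904). ATP5MG, a small membrane subunit, was the 1 complex V member called lower in 769-P (-0.38, SE 0.112, edgeR adjusted p = 0.00973). ATP5ME had the narrowest range, 0.33 on the log2 scale, and ATP5F1A the widest, 2.57.

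Several members that lie side by side on a chromosome shared a direction. ATP5F1D, NDUFS7 and UQCR11 lie within 0.146 and 0.212 megabases of the next on chromosome 19 and were all low in CAKI-2 (-1.61, -1.50 and -1.52). SDHA and NDUFS6, 1.57 megabases apart on chromosome 5, were both high in 786-O (1.20 and 1.24). There were 8 pairs of adjacent members under 2 megabases apart, and they shared a sign in 8 cases in A498, 7 in 769-P, 6 in CAKI-2 and 6 in 786-O. The A498 count includes SDHA with NDUFS6, where SDHA was at -1.04e-05. The scarce COX7A1 and COX6B2 enter these pairs, and NDUFS7 is paired with both ATP5F1D and UQCR11. Of the 51 pairs farther apart on the same chromosome, 32, 39, 35 and 23 shared a sign in the same order.

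Genes that lie next to the members and are not members themselves were compared with them. For each member the median log2 difference of up to 10 tested non-member genes on each side was taken, over a median span of 1.38 megabases. Around ATP5F1D, NDUFS7 and UQCR11 the neighbours had medians of -0.74, -1.08 and -1.08 in CAKI-2. Around SDHA and NDUFS6 they had medians of 0.56 and 0.66 in 786-O, and around SDHC a median of 0.39 in 769-P. Over the 81 members, Pearson's r between a member and its neighbours was 0.54 in 786-O, 0.36 in 769-P, 0.33 in A498 and 0.53 in CAKI-2 (Spearman's rho 0.48, 0.51, 0.25 and 0.57). Over the 75 members averaging 100 counts or more it was 0.48, 0.35, 0.17 and 0.62, so that the A498 value rested partly on scarce genes. The same sign was found for 63, 49, 44 and 54 of the 81. These are descriptions across genes, which share libraries and, where members are adjacent, neighbours.

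Medians of members with and without a promoter motif were compared as a description, with no test. In 769-P the 10 tested members with the NRF1 core had a median of 0.43 and the 56 without it 0.46, and in CAKI-2 the medians were -0.40 and -0.31. The 20 members with the ETS core had medians of 0.41 in 769-P and -0.33 in CAKI-2, compared with 0.48 and -0.30 for the 46 without it. In A498 the 11 members with the YY1 core had a median of 0.15 and the 55 without it -0.06, and for the NRF1 core the A498 medians were 0.14 and -0.07. The 7 members with a TATA box had medians of -0.58 in CAKI-2 and 0.60 in 769-P, compared with -0.31 and 0.40 for the 59 without it.

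The genes that build and serve the complexes were counted alongside. Of 52 assembly factors tested, 28 were higher and 7 lower in 769-P (30.9% and 27.3% of all genes, median 0.41). In CAKI-2 8 were higher and 18 lower (36.6% and 25% of all genes, median -0.16). In 786-O 12 were higher and 22 lower (29.3% and 27.2%, median -0.18), and in A498 16 were higher and 19 lower (39.7% and 29.4%, median -0.00). Of the 22 that serve complex IV, 14 were higher in 769-P (30.9% of all genes) and 13 were lower in 786-O (27.2%). FOXRED1, a complex I assembly factor, was higher in 786-O (1.22, SE 0.102), and NDUFAF6, which acts early in complex I assembly, was lower in CAKI-2 (-1.34, SE 0.131). PET100, needed for complex IV, was lower in CAKI-2 (-1.49, SE 0.346) and COX19, a copper-pathway factor of complex IV, higher in A498 (1.29, SE 0.0947). SDHAF3, a complex II assembly factor, was lower in 769-P (-0.83, SE 0.186).

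Of the 12 regulators of mitochondrial biogenesis, 9 were higher and 0 lower in 769-P (median 0.65), and 10 were lower and 0 higher in A498 (median -0.76). Over all genes, 30.9% were higher and 27.3% lower in 769-P, and 29.4% were lower and 39.7% higher in A498. PPARGC1A, the coactivator PGC-1alpha, was at 37.4, 31.7 and 30.3 CPM in 769-P, 15.3, 10.3 and 10.5 CPM in CAKI-2, 0.34, 2.36 and 0.32 CPM in 786-O, and 0.77, 0.98 and 0.76 CPM in A498. Its differences were 4.15 in 769-P (SE 0.317), 2.25 in CAKI-2 (SE 0.329), -3.37 in 786-O (SE 0.496) and -3.02 in A498 (SE 0.490), so that CAKI-2 combined high PPARGC1A with low levels of the members. PPARGC1B was lower in A498 (-2.06, SE 0.224). POLRMT, the mitochondrial RNA polymerase, was higher in 786-O (1.23, SE 0.133), the line in which all 13 mitochondrially encoded subunits were lower (median -1.12). In A498 all 13 were higher (median 1.12) while 8 of 9 mitochondrial mass markers were lower (median -1.03), and in 769-P all 9 mass markers were higher (median 0.90). In bulk RNA, more mitochondria per cell and more transcript per mitochondrion cannot be told apart.

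Among the carriers, SLC25A4, an ADP/ATP carrier, was higher in 769-P (2.06, SE 0.159) and lower in 786-O (-1.23, SE 0.192). Of the carriers and CYC1, 5 genes together, 4 were higher in 769-P (30.9% of all genes) and 4 lower in A498 (29.4%). NDUFA4L2, the hypoxia-inducible relative of NDUFA4 that is known to be high in ccRCC, was at 37.3, 27.2 and 50.2 CPM in CAKI-2 and 4.60, 4.35 and 4.38 CPM in A498. It was at 0.41, 0.65 and 0.32 CPM in 786-O and had 0 counts in the 3 libraries of 769-P, so that CAKI-2 was at least 1018-fold higher than 769-P by the bound used above. NDUFA4 itself did not differ between lines beyond the test's threshold (edgeR adjusted p = 0.116).

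The second comparison was between sgKDM5C and sgCtrl cells. No member passed the test in any line, and changes were small. In 786-O 0 of 81 members were called by edgeR and 0 by DESeq2, with 0 at an unadjusted p under 0.05, where 0.00991% of all genes were called. In A498 edgeR and DESeq2 again called 0 members, with 2 at an unadjusted p under 0.05 (0.00496% of all genes called). In 769-P both called 0, with 1 at that level (0.00496%). In CAKI-2 both called 0, with 0 at that level (0% of all genes called). Averaged over the 4 lines 0 members were called by either tool and 2 had an unadjusted p under 0.05 (0.00991% of all genes called). For a difference of the sgKDM5C effect between lines, 0 members were called by either tool and 0 had an unadjusted p under 0.05 (0% of all genes called).

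The members leaned slightly to lower values in sgKDM5C cells. The median log2 fold change was -0.13 in A498, -0.09 in 769-P, -0.04 in CAKI-2 and -0.03 in 786-O, where the medians of all genes were 0.02, 0.02, 0 and 0. The number of members below sgCtrl was 58, 53, 63 and 54 of 81 in that order, and averaged over the lines it was 64 with a median of -0.08 (0.04 for all genes). The CAKI-2 count of 63 depended on scaling, and was 55 with DESeq2, 53 with upper-quartile scaling and 48 with total counts. Both guides were below sgCtrl for 51 members in A498 (34.8% of all genes), 39 in 769-P (29.1%), 36 in CAKI-2 (33.3%) and 31 in 786-O (25.9%). Both were above it for 14 (37.9%), 8 (27.2%), 10 (30.6%) and 13 (23.4%). The 2 guides of a line are compared with the same sgCtrl library, so a high or low value in that library moves both.

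By guide, the median of the members was -0.06 and -0.25 for guides 4 and 5 in A498, -0.11 and -0.05 in 769-P, -0.13 and 0.01 in CAKI-2, and -0.04 and -0.02 in 786-O. The CAKI-2 median thus came from guide 4, and it was 0.03 without that library. The A498 median was larger with guide 5, at -0.25 without guide 4 and -0.06 without guide 5. In 769-P it was -0.03 without guide 4.

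**Figure D2:**
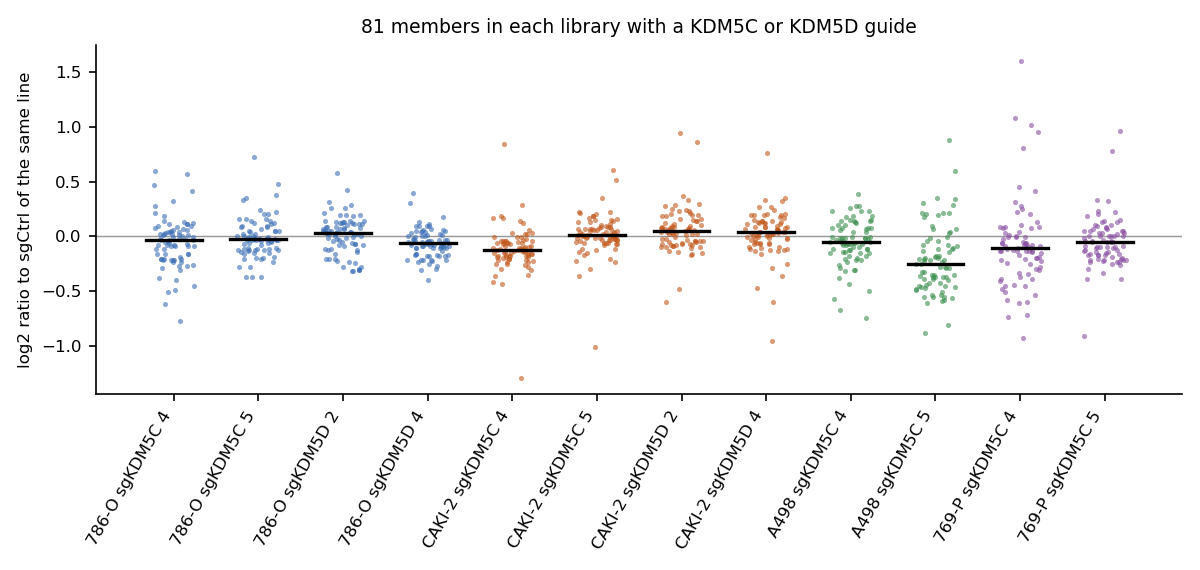
Log2 ratio to the sgCtrl library of the same line (vertical axis) for the 81 members in each of the 12 sgKDM5C and sgKDM5D libraries (horizontal axis), with 1 point per member and bars at the medians. The medians lie between -0.25 (A498 sgKDM5C guide 5) and 0.05 (CAKI-2 sgKDM5D guide 2), and the points of each library spread on both sides of 0.

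The ratios also ranked with the GC content of the transcripts, in members and in all genes. Over 74 members whose mean was 100 counts or more, Spearman's rho between the log2 ratio and the GC content was -0.67 in 769-P guide 4, -0.47 in A498 guide 5, -0.46 in 786-O guide 4, -0.32 in A498 guide 4 and -0.20 in CAKI-2 guide 4. It was 0.36 in 786-O guide 5, 0.25 in CAKI-2 guide 5 and -0.03 in 769-P guide 5. Over all 11872 genes of that depth the values were -0.65, -0.48, -0.27, -0.33 and -0.30 for the first 5 libraries and 0.05, 0.18 and 0.04 for the others. Genes of 1 library are not replicates, and no test of base composition was made beyond removal of the trend. With the GC trend removed the sgKDM5C medians were -0.20 in A498, -0.08 in 769-P and -0.08 over the lines. With the transcript length trend removed they were -0.06 in A498, -0.07 in 769-P and -0.03 over the lines, and 55 members in place of 64 had a mean below sgCtrl.

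By complex, the complex III members were all 9 below sgCtrl in 786-O (median -0.12), CAKI-2 (-0.06) and 769-P (-0.15), but 5 of 9 were above it in A498 (0.05), and none passed the test. The CAKI-2 value came mostly from guide 4, with 9 below (median -0.20), while guide 5 had 6 below (median -0.003). In 786-O each guide had 8 below. The 9 include both UQCRH and UQCRHL, whose counts cannot be separated with certainty. Complex II showed no common direction, with 3 of 4 above in 786-O and A498 and 4 of 4 below in CAKI-2. Complex I had its lowest median in A498 (-0.23, with 30 of 37 below). Complex V had 13 of 17 below in A498, 10 in 769-P, 14 in CAKI-2 and 10 in 786-O. The 13 mitochondrially encoded subunits were below sgCtrl in 13 cases in A498, 12 in CAKI-2 and 12 in 786-O, but 11 were above it in 769-P, and none were called. Outside A498 the guides differed. In CAKI-2 guide 4 had 7 below (median -0.008) and guide 5 had 13 (median -0.23). In 786-O guide 4 had 8 below (median -0.03) and guide 5 had 12 (median -0.39). In 769-P their median difference from the mean of the lines was -0.01 in sgCtrl, 0.24 with guide 4 and -0.12 with guide 5.

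Among members below sgCtrl in at least 7 of 8 sgKDM5C libraries, NDUFC1 and NDUFS8 of complex I had the lowest mean over the lines. NDUFC1, an accessory membrane subunit, was at 72.3 CPM in A498 sgCtrl and 50.9 and 51.3 CPM with guides 4 and 5, at 47.5, 40.8 and 44.3 CPM in 769-P, 37.1, 32.5 and 35.1 CPM in CAKI-2, and 33.5, 27.3 and 29.96 CPM in 786-O. It was below sgCtrl in 8 of 8 libraries, with a mean log2 fold change of -0.25 (SE 0.0816, edgeR adjusted p = 0.901) and a change of -0.50 in A498 (SE 0.161, edgeR adjusted p = 0.828). NDUFS8, a core iron-sulphur subunit, was at 87.0, 64.3 and 64.0 CPM in A498 and 193, 138 and 166 CPM in 769-P. It was below sgCtrl in 7 of 8 libraries (-0.26, SE 0.0985, edgeR adjusted p = 0.901). NDUFA13 was below in 7 of 8 at low counts (-0.21, SE 0.246).

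Within single lines, the largest changes among members with both guides on the same side of sgCtrl are given next, and none passed the test. In 786-O the widest were SDHC (0.35, SE 0.198), NDUFA10 (0.21, SE 0.167) and NDUFA1 (0.20, SE 0.226) upward and NDUFB7 (-0.29, SE 0.209), NDUFB5 (-0.25, SE 0.167) and UQCR11 (-0.24, SE 0.241) downward. In CAKI-2 they were NDUFB8 (0.41, SE 0.459), NDUFS6 (0.14, SE 0.207) and NDUFA5 (0.12, SE 0.280) upward and NDUFA13 (-0.39, SE 0.480), COX6A1 (-0.26, SE 0.239) and UQCRC2 (-0.25, SE 0.160) downward. In A498 UQCRC2 (0.31, SE 0.164), SDHB (0.29, SE 0.168) and SDHC (0.29, SE 0.198) were above and NDUFB8 (-0.70, SE 0.432) and ATP5ME (-0.45, SE 0.355) below. UQCRC2 thus had values of opposite sign in CAKI-2 and A498, a difference that did not pass the test. In 769-P NDUFV2 (1.04, SE 0.50), NDUFC2 (0.69, SE 0.363) and NDUFA5 (0.65, SE 0.288) were above and ATP5F1D (-0.40, SE 0.312), NDUFA9 (-0.39, SE 0.256) and NDUFA11 (-0.36, SE 0.298) below. NDUFA5 rested on guide 4, at 58.5 CPM, with 28.8 CPM in sgCtrl and 31.8 CPM with guide 5.

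The precision of these values limits what could be seen. The 95% interval of the change lay within 2-fold of no change for 69 members in A498, 69 in 769-P, 75 in CAKI-2 and 74 in 786-O, and within 1.5-fold for 35, 47, 59 and 52. Averaged over the lines it lay within 2-fold for 77 and within 1.5-fold for 74 of 81 members, with a median SE of 0.0972 on the log2 scale. The 4 members outside the 2-fold limit were the scarce COX6A2, NDUFA7, COX7A1 and COX6B2.

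The third comparison was between sgKDM5D and sgCtrl cells in 786-O and CAKI-2. KDM5D transcript was not called lower in either line, so it does not check the labels. In 786-O 0 of 81 members were called by edgeR or DESeq2 and 0 had an unadjusted p under 0.05 (0.0149% of all genes called), and in CAKI-2 and over both lines the same held (0% and 0% of all genes called). The medians were -0.01 in 786-O and 0.03 in CAKI-2. Both guides were below sgCtrl for 24 members in 786-O (31.8% of all genes) and 13 in CAKI-2 (32.2%), and above it for 15 (28.9%) and 34 (30.7%). Spearman's rho of the ratios with GC content was 0.46 over members and 0.51 over all genes in CAKI-2 guide 2, and 0.07 and 0.09 in CAKI-2 guide 4. In 786-O it was -0.32 and -0.31 for guide 2 and 0.05 and -0.16 for guide 4. In CAKI-2 63 members were below the sgCtrl library in sgKDM5C cells and 28 in sgKDM5D cells, and both counts rest on the same sgCtrl library. The gap depended on scaling. The counts were 55 and 28 with DESeq2, 53 and 28 with upper-quartile scaling, and 48 and 31 with total counts. With the transcript length trend removed they were 50 and 38.

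Named members of the sgKDM5D comparison did not pass the test. In 786-O NDUFA13 (0.42, SE 0.509), SDHD (0.37, SE 0.367) and NDUFA10 (0.20, SE 0.167) were above sgCtrl and NDUFA6 (-0.28, SE 0.152), NDUFA2 (-0.26, SE 0.257) and NDUFA3 (-0.25, SE 0.204) below. In CAKI-2 ATP5MF (0.34, SE 0.206), NDUFC2 (0.33, SE 0.397) and NDUFA2 (0.26, SE 0.263) were above and UQCRC2 (-0.21, SE 0.161), SDHD (-0.20, SE 0.356) and ATP5MK (-0.14, SE 0.233) below. Averaged over both lines the 95% interval lay within 1.5-fold of no change for 71 of 81 members. The means of NDUFA13 (0.17), NDUFC2 (0.16) and ATP5ME (0.12) were above sgCtrl, and those of NDUFV2 (-0.14), NDUFB6 (-0.11) and UQCRC2 (-0.10) below.

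The sgKDM5C and sgKDM5D cells of 786-O and CAKI-2 were also compared directly. By edgeR 0 of 81 members were called, by DESeq2 0, and 0 had an unadjusted p under 0.05 (0.0397% of all genes called). The median was -0.05, with 59 of 81 members lower in sgKDM5C cells, including 8 of 9 of complex III, and the 95% interval of the difference lay within 1.5-fold for 72 members. This contrast does not use the sgCtrl libraries.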

How the data were processed

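RNA-seq was performed by the authors on 16 libraries, from a stranded total RNA kit with paired ends, and gene counts on GRCh37 were deposited as raw counts. The submitters' processing notes name Trimmomatic 0.38 and STAR 2.5.2b. How reads were counted, on which annotation release and with or without strand is not given in the sources used here, so overlapping genes were treated as uncertain.

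Groups followed the labels (line and guide). Genes with fewer than 60 counts in sum were removed, as in the study's methods, which left 20175. Counts were scaled by TMM (factors 0.935 to 1.07) and fitted over all 16 libraries with a mean per group by edgeR 4.0.16 (quasi-likelihood test, R 4.3.3, limma 3.58.1, 6 residual degrees of freedom, prior 7.92, common dispersion 0.0231). P-values were adjusted by Benjamini-Hochberg over all genes, and SE is the log2 fold change divided by the root of F. A prior count of 2 entered the log2 ratio of 1 library to another. Intervals and floors cover counting or residual error only. Line contrasts averaged the sgCtrl and sgKDM5C means. The fit was tested on simulated data with known sgKDM5C changes, which were the same in every line. At a log2 change of 1, edgeR recovered 23 of 68 changed genes in CAKI-2 (33.8%) and 52 of 68 averaged over the lines (76.5%). At a log2 change of 2 it recovered 57 of 64 in CAKI-2 (89.1%) and 58 of 64 averaged over the lines (90.6%). Among unchanged genes it called 16 in CAKI-2 and 10 averaged over the lines. Gene positions and exon overlap came from GENCODE lifted to GRCh37.

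The alternatives were DESeq2 1.42.0, RLE, upper-quartile and total-count scaling, other count filters, fewer libraries or lines, a replicate block for the guide, the fit without each mutant library in turn, and removal of a GC or length trend, the last chosen after seeing the data.

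The members, gene lists and tests were chosen with earlier results of these data known. Named members were the 3 called with the largest difference per direction and line (mean of at least 20 counts), the 3 with the largest sgKDM5C or sgKDM5D change per direction with the mutant libraries on 1 side of the control, the widest and narrowest range per complex, and the isoform pairs. Outside the members, the 2 assembly factors, carriers or regulators with the largest difference per direction and line were named. Members named for their role, their neighbours or their motif were chosen after their values were seen, as were SDHB, NDUFS7, COX5B, COX4I1, ATP5F1B and ATP5PB. The values of 1 member that the rule names are not reported here. Sequences are from RefSeq (GRCh38.p14).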

Additional observations from a re-analysis of the deposited data

How the results depend on the processing

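The count of members called kept within 1.5 times its value in every comparison and under every alternative run. It ranged from 67 to 77 for any difference between lines, 51 to 57 for 769-P, 41 to 60 for A498, 43 to 51 for CAKI-2 and 32 to 46 for 786-O, and stayed at 0 in every sgKDM5C and sgKDM5D comparison. The 769-P median stayed above 0 and the CAKI-2 median below 0 throughout, while those of 786-O and A498 changed sign. Without each guide library in turn, the counts ranged from 68 to 75, 50 to 56, 41 to 49, 42 to 52 and 36 to 43 in the same order.

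Medians of members moved under these settings. For 786-O against the other lines (-0.01) the median was -0.0232 with DESeq2, -0.0231 with RLE, -0.112 with upper-quartile scaling, -0.0567 with total counts, 0.0233 with filterByExpr, 0.0369 with no filter beyond 1 count, 0.0322 with 12 libraries, -0.0815 without the GC trend and 0.0252 without the length trend. For CAKI-2 (-0.31) it was -0.22 with total counts and -0.16 without the length trend. For A498 (-0.08) it was 0.11 with upper-quartile scaling, 0.10 without the GC trend and -0.21 without the length trend. For 769-P (0.50) it was 0.41 with upper-quartile scaling, 0.41 with total counts and 0.35 without the GC trend. For sgKDM5C in 786-O (-0.03) it was -0.0159 with no filter beyond 1 count and -0.00287 without the length trend. Removing the GC trend gave -0.199 for sgKDM5C in A498 (-0.13), and removing the length trend -0.0634 there and -0.0294 over the lines (-0.08). For sgKDM5D in 786-O (-0.01) the median was 0.0325 without the length trend. For sgKDM5D in CAKI-2 (0.03) it was 0 with no filter beyond 1 count, 0.0502 without the GC trend and 0.00666 without the length trend. The cause of these shifts was not tested. The share of calls that were higher moved from 36.2% to 51.9% in A498 and from 51.3% to 39.0% in 786-O with upper-quartile scaling, to 55% without the GC trend and 22.4% without the length trend in A498, and from 20% to 36% in CAKI-2 without the length trend.

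Leaving out 1 guide library gave medians from -0.0454 to -0.0158 for sgKDM5C in 786-O, -0.11 to -0.0324 in 769-P, -0.25 to -0.0550 in A498, -0.13 to 0.0344 in CAKI-2 and -0.11 to -0.0436 over the lines. They ran from -0.0616 to 0.0123 for sgKDM5D in 786-O and 0.0315 to 0.0560 in CAKI-2. Against the other lines they ran from 0.47 to 0.51 for 769-P, -0.15 to -0.0442 for A498, -0.34 to -0.23 for CAKI-2 and -0.0243 to 0.0390 for 786-O. A lone library was assumed to vary like the other groups. The mean of NDUFA13 over sgKDM5D in 786-O and CAKI-2 turned from 0.17 to -0.0535 without the CAKI-2 guide 4 library and reached 0.333 without guide 2 of that line. NDUFA13 and COX7A2L in 769-P lost their calls under some settings, including the guide block (adjusted p = 0.0508 and 0.0676, edgeR).

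Guide numbers did not pair the libraries. The correlation of the guide 5 minus guide 4 difference between lines ran from -0.223 to 0.291 for sgKDM5C and was -0.0562 for sgKDM5D. With the guide number as a replicate block, 71 members differed between lines, 51 in 769-P, 46 in A498, 48 in CAKI-2 and 39 in 786-O, and 0 in every mutant comparison, so that the block changed no count by over 1.5 times. At this depth the 95% interval of the mean sgKDM5C change reached beyond 2-fold for COX6A2, NDUFA7, COX7A1 and COX6B2.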
